A study of Homo sapiens with 2 samples.

Results

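Tissue factor and the plasminogen activators form a system of 8 genes at the cell surface: the coagulation trigger F3, its inhibitor TFPI and the related TFPI2, the thrombin receptor THBD, the urokinase gene PLAU with its receptor PLAUR, the tissue-type activator PLAT and the serpin SERPINE2. They were taken by gene symbol from a table of 16642 genes, in which all 8 are listed. Both libraries came from PC9, an established human lung adenocarcinoma cell line. The TAZ4SA library came from PC9 cells that make TAZ4SA, a constitutively active form of the co-activator TAZ, brought in with lentiviral Tet-On vectors and induced with 50 ng/mL doxycycline for 24 h. The control library came from PC9 cells labelled as control. The protocol is written for both samples together, names a control Tet-On plasmid "and/or" the TAZ4SA plasmid, and does not state separately what the control cells carried or whether they received doxycycline. Whether each line was a clone or a pool of transduced cells is not stated there.

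Tissue factor is a transmembrane protein that binds factor VIIa and starts coagulation where plasma meets cells, and many carcinoma cells carry it. TFPI blocks the complex of tissue factor and factor VIIa, and thrombomodulin turns thrombin from a clotting enzyme into an activator of protein C. On the other side of the system, urokinase and tissue-type plasminogen activator cut plasminogen to plasmin, which dissolves fibrin and degrades matrix, and serpins such as protease nexin-1 trap these proteases.

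Upstream sequence is shown for F3, TFPI2 and PLAUR because F3 and TFPI2 had the largest ratios in the system and all 3 share a match to the AP-1 motif. RefSeq promoter windows on GRCh38.p14 were matched by symbol for 6 of the 8 genes, F3, TFPI, TFPI2, PLAU, PLAUR and SERPINE2, and gave 8 windows of 250 bases before a transcript start. THBD and PLAT were not used in this step. Both strands were searched for 5 motifs: TGANTCA for AP-1, GGANTTTCC for NF-kB, GGAATG for TEAD, the DNA-binding partner of TAZ, GGGCGG for SP1, and TATAAA for the TATA box. The stretch of F3 that lies upstream of every exon annotated for it in GENCODE 29, chr1:94541801-94542009 on the minus strand, is written with its matches in capitals, which are from left to right AP-1, AP-1, NF-kB and SP1 at 4 places:

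F3 upstream: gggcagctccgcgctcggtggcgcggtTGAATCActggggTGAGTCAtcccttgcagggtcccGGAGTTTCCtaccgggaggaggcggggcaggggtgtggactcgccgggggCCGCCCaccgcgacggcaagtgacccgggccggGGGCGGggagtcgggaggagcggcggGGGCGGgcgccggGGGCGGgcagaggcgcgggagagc

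The AP-1 matches are set side by side with 10 bases on each side and the match in capitals. All lie on the minus strand of the chromosome, at chr1:94541966-94541992 and chr1:94541953-94541979 for F3, chr7:93890824-93890850 for TFPI2 and chr19:43670339-43670365 for PLAUR.

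F3, distal match: gtggcgcggtTGAATCActggggtgag
F3, proximal match: atcactggggTGAGTCAtcccttgcag
TFPI2: tccccgtgcaTGAATCAgccacccctc
PLAUR: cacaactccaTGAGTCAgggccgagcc

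The AP-1 letters occurred in 1 window each of F3, TFPI2 and PLAUR, 3 of the 6 genes, and in 6.57% of all 35116 windows of this length. PLAU and SERPINE2 had more than 1 window each, so a share of genes is not the same measure as a share of windows. The distal and proximal matches of F3 began 223 and 210 bases before its start. The TFPI2 match began 87 bases before its start and the PLAUR match 186 bases before. At the free letter N, distal F3 and TFPI2 had A, while proximal F3 and PLAUR had G. TFPI2 and PLAUR thus share the motif only through this free letter. The NF-kB letters, present in 1.45% of all windows, occurred only upstream of F3 among the 6 genes, 187 bases before the start. SP1 letters occurred upstream of 4 of the 6 genes and in 42.6% of all windows, and the TATA box letters, found in 10.7% of all windows, only upstream of F3 among the 6. That TATA box match lay on the strand opposite to the F3 transcript, 28 to 23 bases before the start. It is outside the printed stretch, which holds only bases upstream of every annotated F3 exon. No window of the 6 genes held the TEAD letters, which 11.9% of all windows held. No 2 of these motifs overlapped in the F3, TFPI2 or PLAUR windows. A match describes letters in a window and is not a measured binding site. GENCODE 29 also annotates transcripts of TFPI2 and PLAUR that begin farther upstream, so their windows lie partly within other transcripts of the same gene.

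**Figure D1:**
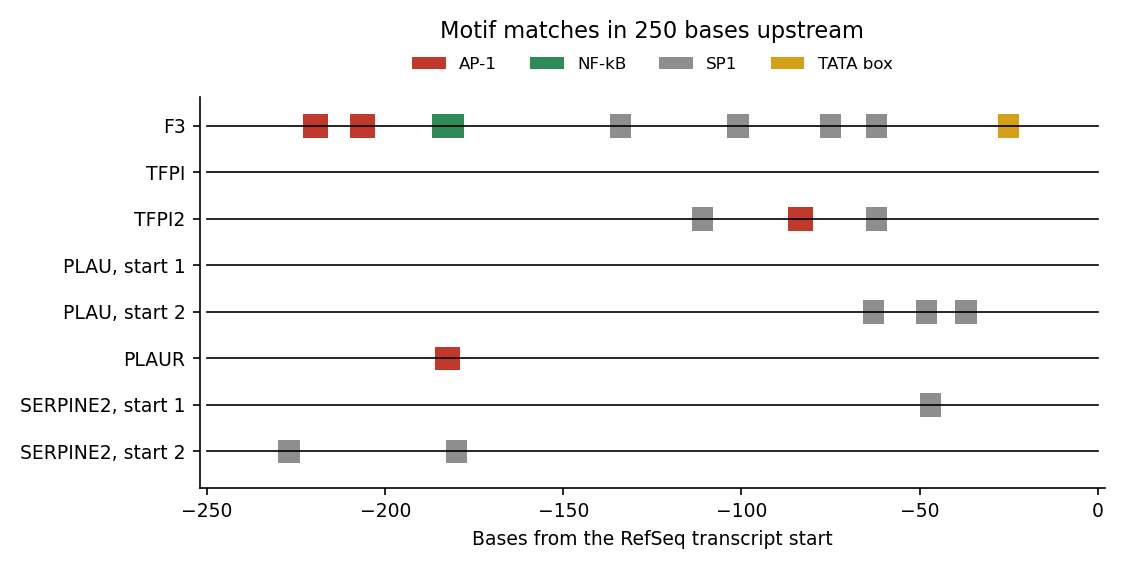
Motif matches in the 250 bases before each RefSeq transcript start of the 6 genes, with distance from the start in bases on the x axis and 1 line per window. F3 holds 2 AP-1 matches and 1 NF-kB match, TFPI2 and PLAUR hold 1 AP-1 match each, and TFPI and the first PLAU start hold none of the 5 motifs.

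The deposited values are normalized counts, in which each library's reads were divided by a single size factor. Dividing by the step of each column gave back whole reads, 29668388 for TAZ4SA and 47684754 for control. A ratio is the normalized count in TAZ4SA over that in control, and its bracketed range is an exact 95% interval (Clopper-Pearson) from those reads. The intervals and detection limits cover counting error only, and may understate even that, since several reads can come from 1 molecule. With 1 library per group there is no replicate check and no test of TAZ4SA against control, and how much separate cultures vary is unknown. WWTR1, the gene for TAZ, had 15628 normalized counts in TAZ4SA against 4933 in control. Any reads of the construct counted under WWTR1 cannot be told apart from those of the endogenous gene. All 8 epithelial markers were well above the floor, with sums of 360839 normalized counts in TAZ4SA and 318507 in control. Lung lineage markers were low, with 3 of 6 listed at sums of 42.1 in TAZ4SA and 110 in control. The surfactant gene SFTPB made up most of the control sum, with 21.8 normalized counts in TAZ4SA and 81.0 in control, and was 3.72-fold lower (2.14 to 6.92). Because THBD, TFPI and PLAT are also endothelial genes, endothelial markers were read too. Of 10 such markers 4 were listed, with sums of 2963 normalized counts in TAZ4SA and 3338 in control. CDH5 stood at 1362 in TAZ4SA and 1589 in control, ESAM at 869 in TAZ4SA and 1069 in control, EGFL7 at 725 in TAZ4SA and 662 in control, and VWF at 7.25 in TAZ4SA and 18.0 in control. None of the 4 differed by 1.5-fold with an interval that excludes a ratio of 1, and their part in the results was not tested. In bulk RNA, fewer cells expressing a gene and less RNA per cell cannot be told apart.

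Within the system, F3 and TFPI2 were both more than 2-fold higher in the TAZ4SA library, THBD, PLAUR and SERPINE2 were higher by less than 1.5-fold, PLAU and PLAT were slightly lower, and TFPI was listed at 0 in both. Of the 8 genes, 7 passed the minimum used for all genes, a mean of 20 normalized counts over the 2 libraries, and the lowest mean among these was 1073 normalized counts. At a threshold of 1.5-fold with an interval that excludes a ratio of 1, 2 of these 7 were higher and 0 were lower. The same rule called 4.16% of all 14074 genes with that minimum higher and 4.44% lower. At 2-fold the members' counts were again 2 higher and 0 lower, against 1.9% of all 14074 genes higher and 1.56% lower. The median log2 ratio of the 7 genes was 0.25, against 0.00019 over all 14074 genes; 2 of the 7 were below 0, and nothing about the system as a whole is read from this median.

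The trigger of coagulation had the highest level per kilobase of the system in both libraries. F3 (ENSG00000117525) had 31349 normalized counts in TAZ4SA, from 21612 reads, against 12785 in control, from 14209 reads. The TAZ4SA library was thus the higher one even in unscaled reads, although the control was sequenced 1.61 times more deeply. The ratio was 2.45-fold (2.40 to 2.50), with a log2 ratio of 1.29, and the log2 fold change in the authors' deposited table was also 1.29. F3 ranked 166 from the top among the log2 ratios of the 14074 genes. As a share of the library, F3 took 728 reads per 1000000 recovered in TAZ4SA and 298 in control. Per kilobase of annotated exon, its level was 10904 normalized counts in TAZ4SA and 4447 in control. Only 0.545% of genes with an annotated length had a higher level per kilobase in TAZ4SA, against 2.03% in control. F3 was therefore among the most abundant mRNAs of both libraries by this scale, and higher in TAZ4SA.

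TFPI (ENSG00000003436) encodes a secreted and membrane-bound Kunitz-type inhibitor that shuts off factor Xa and the tissue factor complex. No read was assigned to it in either library. A count of 0 allows up to 3 reads per library, which is 4.35 normalized counts in TAZ4SA and 2.70 in control, so a level below those limits was not detectable at this depth. TFPI and DNAJB13, named here after its value was seen, were the 2 genes of the table with 0 reads in both libraries. The rule that admitted such genes to the table is not stated. An antisense gene overlaps 118 bases of the TFPI exons in GENCODE 29, which is 1.01% of their length. Since F3 stood at 12785 normalized counts or more in each library and TFPI at 0, no fold between them is given.

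TFPI2 (ENSG00000105825) encodes a second Kunitz-type inhibitor that is deposited in the matrix and acts on plasmin and related proteases more than on coagulation. It had 1481 normalized counts in TAZ4SA, from 1021 reads, against 665 in control, from 739 reads. As with F3, the TAZ4SA library held more reads of TFPI2 than the deeper control did. The ratio was 2.23-fold (2.02 to 2.45), a log2 ratio of 1.15, and it ranked 198 from the top among all 14074 genes. Its interval and that of F3 overlapped between 2.40 and 2.45. The level of F3 per kilobase was 19.7 times that of TFPI2 in TAZ4SA and 17.9 times in control, so the 2 genes kept a similar proportion in both libraries. The exons of TFPI2 share 44 bases with GNGT1 on the other strand, which had 2 reads in TAZ4SA and 12 in control.

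Thrombomodulin, the receptor that redirects thrombin to protein C, was higher by a smaller amount. THBD (ENSG00000178726) had 3941 normalized counts in TAZ4SA, from 2717 reads, against 3168 in control, from 3521 reads. The ratio was 1.24-fold (1.18 to 1.31), and 11.6% of the 14074 genes had a higher log2 ratio. The level of F3 per kilobase was 11.4 times that of THBD in TAZ4SA and 5.77 times in control. The proportion of the coagulation trigger to thrombomodulin mRNA was thus larger in the TAZ4SA library.

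**Figure D2:**
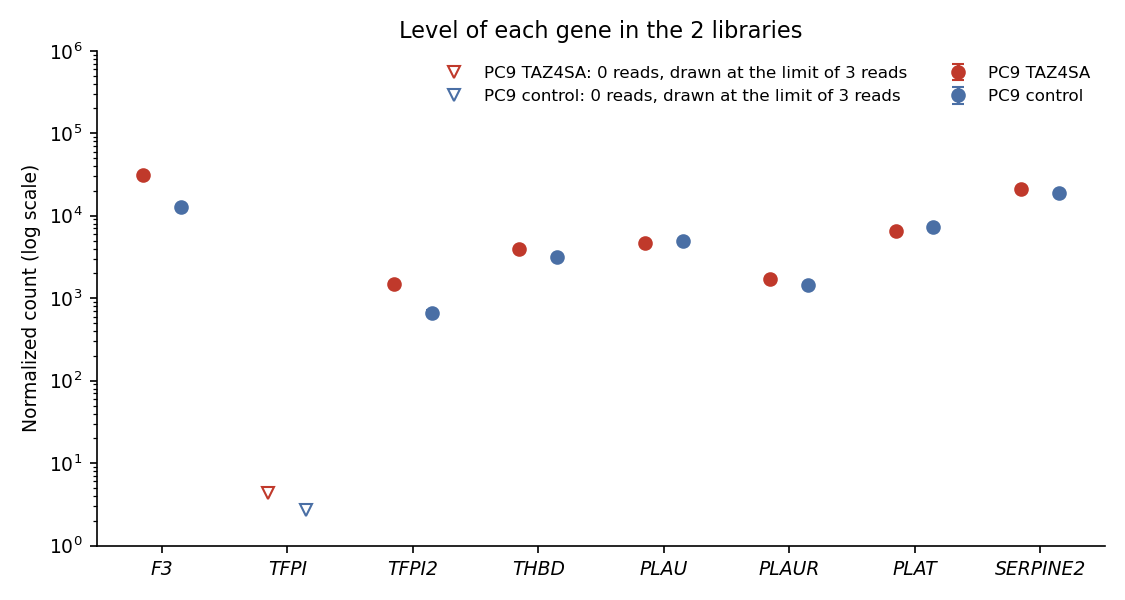
Normalized counts of the 8 genes on a log axis, TAZ4SA in red to the left of control in blue. Bars are exact Poisson 95% intervals and are mostly smaller than the points, and open triangles mark TFPI, with 0 reads, at the limit of 3 reads. F3 stands at 31349 in TAZ4SA and 12785 in control, and the other detected genes lie between 665 and 21080.

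Both plasminogen activators were slightly lower in TAZ4SA. PLAU (ENSG00000122861), which encodes urokinase, had 4631 normalized counts in TAZ4SA, from 3193 reads, against 5002 in control, from 5559 reads. This was 1.08-fold lower (1.03 to 1.13), with a log2 ratio of -0.11. PLAT (ENSG00000104368), which encodes the tissue-type activator best known for fibrin-bound clot dissolution, had 6452 normalized counts in TAZ4SA, from 4448 reads, against 7223 in control, from 8028 reads. It was 1.12-fold lower (1.08 to 1.16), with a log2 ratio of -0.16. Added together, the normalized counts of the activators came to 11083 in TAZ4SA and 12225 in control, 1.10-fold lower (1.07 to 1.13). These differences are small: 74.9% of the 14074 genes had a higher log2 ratio than PLAT and 68.4% a higher one than PLAU. The reads of PLAU carry a further limit, because C10orf55 on the opposite strand overlaps 31.1% of its exon length. C10orf55, named here after its values were seen, had 8 reads in TAZ4SA and 32 in control, and no source used here says whether the counting used strand.

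The receptor of urokinase and the serpin went the other way from the activators. PLAUR (ENSG00000011422) encodes a protein held to the membrane by a lipid anchor, which concentrates urokinase at the cell surface. It had 1707 normalized counts in TAZ4SA, from 1177 reads, against 1439 in control, from 1599 reads, a ratio of 1.19-fold (1.10 to 1.28). SERPINE2 (ENSG00000135919) encodes protease nexin-1, an inhibitor of thrombin, urokinase, tissue-type activator and plasmin. It had 21080 normalized counts in TAZ4SA, from 14533 reads, against 18614 in control, from 20688 reads, a ratio of 1.13-fold (1.11 to 1.16). All 5 ratios within 1.5-fold had counting intervals that exclude 1, which on its own says little at this depth: the interval lay above 1 for 24.5% of the 14074 genes and below 1 for 25.2%.

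**Figure D3:**
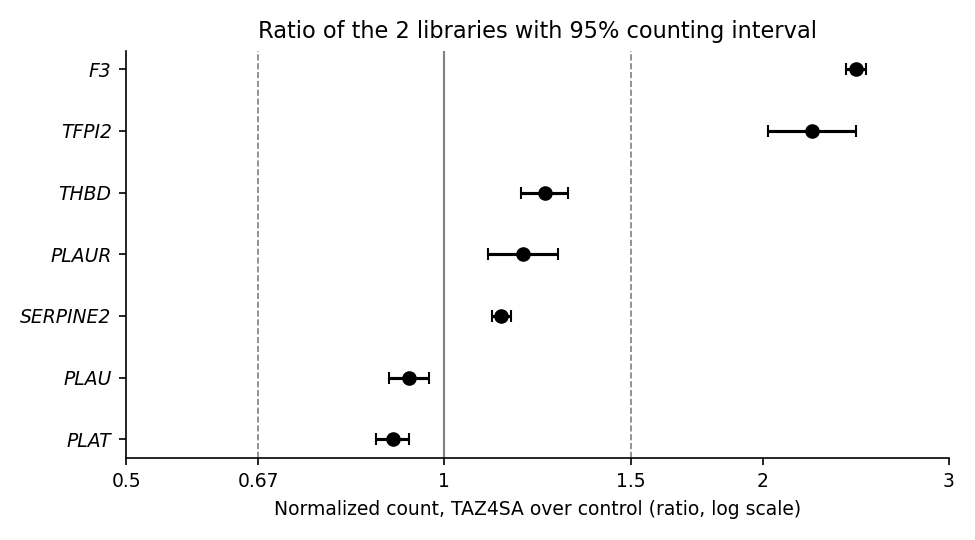
Ratio of the normalized count in TAZ4SA to that in control for the 7 detected genes, on a log axis, with exact 95% counting intervals, a solid line at 1 and dashed lines at 1.5-fold. F3 (2.45) and TFPI2 (2.23) lie beyond the upper dashed line, and the other 5 lie between 0.893 and 1.24.

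Levels of the members were compared with each other per kilobase of the union of annotated exons. In TAZ4SA the order was F3 at 10904 normalized counts per kilobase, SERPINE2 at 2371, PLAU at 1570, PLAT at 975, THBD at 959, TFPI2 at 552 and PLAUR at 383. In control it was F3 at 4447, SERPINE2 at 2094, PLAU at 1696, PLAT at 1091, THBD at 771, PLAUR at 323 and TFPI2 at 248. TFPI2 thus stood above PLAUR in TAZ4SA and below it in control. In TAZ4SA the counting intervals of PLAT (946 to 1004) and THBD (923 to 996) overlapped, so these neighbours were not distinguishable. F3 and SERPINE2 held the highest and second-highest places in both libraries, also with the longest transcript in place of the exon union. The lower places depended on the length: with the longest transcript PLAUR stood at 1060 in TAZ4SA and 894 in control, above both THBD and TFPI2, and PLAT at 1864 in TAZ4SA and 2086 in control, above PLAU.

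Within the fibrinolytic arm the proportions were read inside each library. The level of SERPINE2 per kilobase was 0.932 times the summed level of PLAU and PLAT in TAZ4SA and 0.751 times in control. PLAU stood at 4.10 times PLAUR in TAZ4SA and 5.25 times in control, and at 1.61 times PLAT in TAZ4SA and 1.55 times in control. The first and second of these proportions shifted between the libraries, toward SERPINE2 and PLAUR mRNA in TAZ4SA. That of the activators to each other moved by less. The absolute size of the proportions rests on the lengths used, but the shift between libraries does not, except for the sum of the activators. No interval was computed for the proportions, and their shift was not tested. It is not shared by SERPINB6, SERPINB8 and SERPINF2, the measured genes listed below as inhibitors of plasmin and its activators, which were all lower in TAZ4SA.

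The other genes of coagulation and fibrinolysis were read from 7 lists of 84 genes; 51 of them are listed in the table and 42 passed the minimum mean of 20. By the rule of 1.5-fold with an interval that excludes 1, 5 of the 42 were called higher and 5 lower, against 4.16% and 4.44% of all 14074 genes called higher and lower, and 32 were not called. Their median log2 ratio was -0.04. None of the 7 measured genes in the list of coagulation factors and cofactors was called. Among them only F12 and F8 encode coagulation factors, and 8 of the 21 genes in this list were present in the table. F8, the gene for factor VIII and named here after its values were seen, had 19 reads in TAZ4SA and 20 in control, a ratio of 1.53 with an interval that included 1 (0.773 to 3.02). LMAN1 and MCFD2, which together carry factors V and VIII out of the endoplasmic reticulum, had the highest normalized counts of that list, not scaled for length. LMAN1 had 24882 normalized counts in TAZ4SA and 27322 in control, and MCFD2 had 18823 in TAZ4SA and 17355 in control.

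Coagulation inhibitors and the protein C pathway went both ways, with 3 of 6 measured genes called higher and 1 lower, against 4.16% and 4.44% of all 14074 genes. PROCR, the receptor that presents protein C to the thrombin-thrombomodulin complex, had 499 normalized counts in TAZ4SA and 310 in control, 1.61-fold higher (1.38 to 1.87). PROS1, the gene for the cofactor of activated protein C, had 28 reads in TAZ4SA and 7 in control. With 40.6 normalized counts in TAZ4SA and 6.30 in control, PROS1 passed the minimum mean only through the TAZ4SA library. GAS6, counted in this list as a relative of PROS1, had 1085 normalized counts in TAZ4SA against 435 in control. The 3 of 6 called higher therefore depend on the filter for PROS1 and on the make-up of the list for GAS6. SERPIND1, which encodes heparin cofactor II, a thrombin inhibitor, had 31.9 normalized counts in TAZ4SA and 166 in control. It was 5.22-fold lower (3.34 to 8.53), on 22 reads in TAZ4SA and 185 in control. PROCR and PROS1 were thus called higher in TAZ4SA and SERPIND1 lower, while PROC, the gene for protein C itself and named here after its values were seen, had 15 reads in TAZ4SA and 21 in control.

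Protease-activated receptors, which thrombin and the tissue factor complex cut to signal into the cell, were lower by small amounts or not distinguishable. F2RL1, the receptor cut by the complex of tissue factor and factor VIIa, had 7991 normalized counts in TAZ4SA and 9739 in control, 1.22-fold lower (1.18 to 1.26). F2R, a thrombin receptor, had 962 in TAZ4SA and 1001 in control, with an interval that included a ratio of 1. None of the 3 measured receptors was called.

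Around the plasminogen activators, most genes lay within 1.5-fold. The list of plasminogen and the inhibitors of plasmin and its activators had 3 measured genes, and none was called. All 3 are serpin genes, and the plasminogen gene was not among them. SERPINF2, named here after its values were seen, had 294 normalized counts in TAZ4SA and 367 in control, 1.25-fold lower (1.05 to 1.48). SERPINB6, an intracellular serpin, had 3021 normalized counts in TAZ4SA and 4234 in control, 1.40-fold lower (1.33 to 1.48). SERPINB8, another serpin of the clade of SERPINB6, had 909 in TAZ4SA and 1009 in control, 1.11-fold lower (1.005 to 1.22). Of 10 measured receptors for plasminogen or for clearance of its activators, 1 was called higher and 0 were called lower. The same rule called 4.16% of all 14074 genes higher and 4.44% lower. The receptor called higher was ANXA2, the annexin that binds plasminogen and tissue-type activator together with S100A10. It had 13281 normalized counts in TAZ4SA against 8711 in control, 1.52-fold (1.48 to 1.57). S100A10, named here after its values were seen, had 16033 in TAZ4SA and 15600 in control, a ratio of 1.03 (1.003 to 1.05). The counting intervals of these subunits did not overlap in these 2 libraries. They hold counting error only, so whether the subunits differ between separate cultures was not tested.

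**Figure D4:**
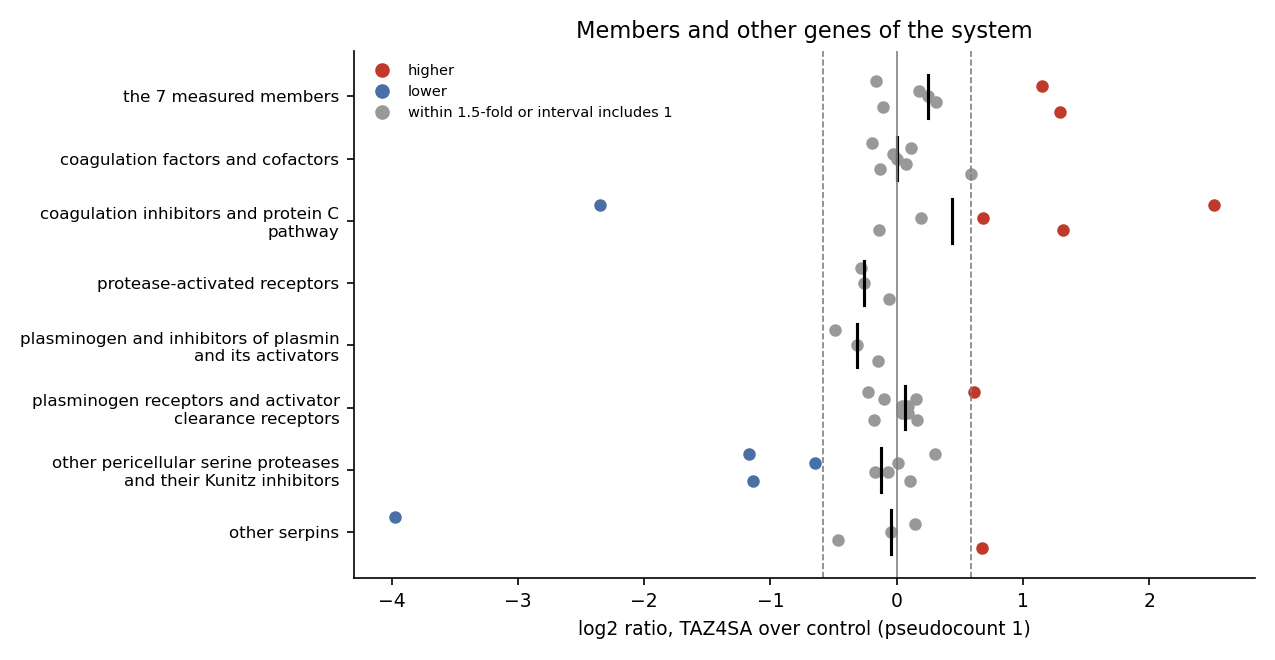
Log2 ratio of each measured gene in the system and in the 7 further lists, 1 point per gene, with red for genes called higher in TAZ4SA (at least 1.5-fold, interval excluding 1), blue for genes called lower by the same rule, grey for genes not called, and a black bar at the median of each row. The 7 measured members have a median of 0.25 and 2 red points, and the coagulation inhibitor row is the most spread of the coagulation rows, with 3 red points and 1 blue.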

How the data were processed

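RNA-seq libraries of PC9 TAZ4SA and PC9 control cells, 1 each, were compared. Per the submitters' processing notes, the tools were HTSeq, STAR, DESeq2 and Trim Galore and the build GRCh37, with no versions or settings given. The authors deposited 1 normalized count (a signal value) per gene and library and a log2 fold change. Each deposited signal value was a whole multiple of its column's step (100% of values in both, tolerance 0.01 reads), giving size factors of 0.689 for TAZ4SA and 1.11 for control. The log2 ratio used a pseudocount of 1, which understates differences of low genes; ratios used none. The members and lists were chosen with earlier results of these data known. Named genes were the 8 members, WWTR1 and, per list, up to 6 genes past 1.5-fold, or otherwise the 2 with the highest mean. The values of 1 gene that this rule names are not reported here, and it was left out of its list. Count tests were not run because 1 library per group leaves 0 residual degrees of freedom. Intervals and calls were tested on simulated Poisson counts, which hold counting error only and say nothing about variation between cultures. Lengths came from GENCODE 29 (GRCh38) by gene identifier, for 13761 of the 14074 genes. Alternatives covered scaling, pseudocount, thinning, thresholds, filters and length. Scaling factors alone came from DESeq2 1.42.0 and edgeR 4.0.16 in R 4.3.3, and everything else from scipy 1.17.1, numpy 2.4.6, pandas 2.3.3 and matplotlib 3.10.9 in Python 3.11.15.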

Additional observations from a re-analysis of the deposited data

How the results depend on the processing

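The log2 ratios of the 7 detected genes took 56 alternative values over 4 scalings, 3 pseudocounts (0.1, 0.5 and 5) and thinning of control reads to the TAZ4SA total, and all 56 lay within the counting intervals (TFPI, with 0 reads, stays at 0 by construction); scaling moved a ratio by at most 0.00435, the pseudocount by at most 0.00475 and thinning by at most 0.0532. The 2 genes called higher and the 0 called lower did not change in number at 2-fold, with the interval bound required to reach 1.5-fold, or under any of the 4 scalings. Among the listed pathway genes, the 5 called higher became 2 at 2-fold and 2 with the bound at 1.5-fold, GAS6 and PROS1 in both cases. They became 9 when unfiltered and 3 at a minimum mean of 100. The 5 called lower became 4 at 2-fold, 4 with the bound at 1.5-fold, 7 when unfiltered and 2 at that minimum. These changes follow by construction of the thresholds. With the longest transcript in place of the exon union, the levels per kilobase in TAZ4SA and control were 13707 and 5590 for F3, 606 and 272 for TFPI2, 1742 and 1882 for PLAU, 1060 and 894 for PLAUR, 1864 and 2086 for PLAT, and 3520 and 3108 for SERPINE2, since the lengths are shorter. No paired analysis was possible because TAZ4SA and control have 1 library each. Replicates could not be left out for the same reason. Depth limits the genes with few reads most, such as PROS1, with 28 reads in TAZ4SA and 7 in control.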

Other observations

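Serine proteases at or around the cell surface, which overlap in substrates with the plasminogen activators, and their Kunitz inhibitors had 8 measured genes. By the rule of 1.5-fold with an interval that excludes 1, 0 were called higher in TAZ4SA and 3 lower. The rule called 4.16% of all 14074 genes higher and 4.44% lower. TMPRSS4, a transmembrane protease, had 358 normalized counts in TAZ4SA and 788 in control, 2.20-fold lower (1.91 to 2.54). TMPRSS2, of the same family, had 52.2 in TAZ4SA and 119 in control, 2.27-fold lower (1.56 to 3.39), and PRSS8, which encodes the membrane-anchored protease prostasin, had 257 in TAZ4SA and 403 in control, 1.57-fold lower (1.32 to 1.88). The other 5 measured genes lay within 1.5-fold.

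Of 5 other serpins measured, 1 was called higher and 1 lower by the same rule. That rule called 4.16% of all 14074 genes higher and 4.44% lower. SERPINB7 had 55 reads in each library, which after scaling was 79.8 normalized counts in TAZ4SA against 49.5 in control, 1.61-fold higher (1.09 to 2.39). SERPINB3, a squamous cell carcinoma antigen, had 2 reads in TAZ4SA and 67 in control, 20.8-fold lower (5.53 to 175). With 2.90 normalized counts in TAZ4SA and 60.3 in control, SERPINB3 passed the minimum mean only through the control library. SERPINB4, its near-identical neighbour and named here after its values were seen, had 2 reads in TAZ4SA and 23 in control, and no source used here says how reads shared by the pair were counted.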
